A study of Mus musculus with 18 samples.

Results

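The data are hepatic mRNA levels of 6 mouse genes, the receptors *Axl* and *Mertk*, their ligand *Gas6* and the complement chains *C1qa*, *C1qb* and *C1qc*, taken by gene symbol from a table of 15052 genes. The 6 genes were chosen by name with their values over the 4 groups already known, so their levels and differences are given as a description, with no p-value and no call. Poly(A) RNA was sequenced from the livers of 18 mice. Of the WT mice 4 were pair-fed and 5 EtOH-fed, and of the *Apoe* KO mice 5 were pair-fed and 4 EtOH-fed. The WT mice were C57BL/6J, all mice were 10 to 12 weeks old, and all are labelled female, although the methods give female or male for this model. The *Apoe* KO is a germline deletion present in every cell, so that it is not a model of macrophage APOE alone. After 5 days on control liquid diet, EtOH-fed mice had 10 days of a diet with 5% (v/v) ethanol and a single gavage of 5 g/kg ethanol on day 11, and livers were collected 9 h later. Pair-fed mice had the control diet and a gavage of 9 g/kg dextrin maltose. Values are read counts per gene that the authors had scaled to nearly equal totals, called scaled read counts here.

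Dying cells are cleared by phagocytes in a process called efferocytosis. AXL and MERTK, with TYRO3, form the TAM family of receptor tyrosine kinases. They bind GAS6 or protein S, which in turn bind phosphatidylserine exposed on the dying cell. C1q, built of 3 kinds of chain and made largely by macrophages, binds apoptotic cells directly as an opsonin and also starts the classical complement pathway. In the liver, Kupffer cells, the resident macrophages, are a main source of C1q and carry MERTK and AXL, while GAS6 is made by several cell types.

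In the GRCm38 build with GENCODE M21, the 3 C1q genes lie side by side on the minus strand of chromosome 4, in the order *C1qb* (136880129 to 136886187), *C1qc* (136889804 to 136893065) and *C1qa* (136895917 to 136898803), within 18.7 kb. *Axl* is on the minus strand of chromosome 7 (25757273 to 25788705), 6.06 Mb from *Apoe* on the same chromosome. *Mertk* is on the plus strand of chromosome 2 (128698956 to 128802894), and *Gas6* is on the minus strand of chromosome 8 (13465374 to 13494490). RefSeq promoter sequences (GRCm38.p6) were matched for 5 of the 6 genes. Those of *Axl*, *C1qb* and *C1qc* are shown because these genes had the same order of group levels although only the C1q genes are neighbours. Each line is written 5′ to 3′ on the minus strand and ends just before the first annotated start site, at chr7:25788734-25788883, chr4:136886201-136886350 and chr4:136893066-136893164. Capitals mark the motifs found.
Axl: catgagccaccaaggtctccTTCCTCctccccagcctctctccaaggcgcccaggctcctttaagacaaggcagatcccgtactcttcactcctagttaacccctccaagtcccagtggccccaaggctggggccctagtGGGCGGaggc
C1qb: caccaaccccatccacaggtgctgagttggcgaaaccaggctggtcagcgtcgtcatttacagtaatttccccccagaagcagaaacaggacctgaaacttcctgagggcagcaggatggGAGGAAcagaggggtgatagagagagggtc
C1qc: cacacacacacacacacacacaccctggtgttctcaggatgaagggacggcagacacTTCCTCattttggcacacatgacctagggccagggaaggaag

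The 250 bases before each RefSeq start were searched on both strands for GAGGAA (the core bound by PU.1), TGCTGAC (a MAF site), TGACTCA (an AP-1 site) and GGGCGG (a GC box). A PU.1 core was present in *Axl*, *C1qb* and *C1qc* and in neither *Mertk* nor *Gas6*, and 23.3% of all 32851 promoters of this length held one. GC boxes were present in *Axl* (1 match), *C1qc* (1, outside the stretch shown), *Mertk* (3) and *Gas6* (4), against 32.7% of all promoters. None of the 5 windows held the MAF site (3.8% of all promoters) or the AP-1 site (4.5%). These are matches of letters in short windows and do not show binding.

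Before the values are given, 1 library needs a remark. EtOH-fed *Apoe* KO mouse 1 had a scaled read count of 826 for *Xist*, the RNA of the inactive X chromosome, against 15227 to 30379 in the other 17 mice, and of 1077 for the Y-linked *Ddx3y*, against 2 to 118. These values go against its label as female, and the differences of the 6 genes, and the list counts and named calls that changed when it was left out, are also given without it. *Apoe* itself was at 611230 to 798431 in the WT mice and at 8586 to 108651 in the *Apoe* KO mice, below every WT mouse. In this respect the genotype labels held in all 18. The *Apoe* KO values were uneven, with 108651 in pair-fed mouse 4 and 8586 in pair-fed mouse 5. The source of the *Apoe* reads in *Apoe* KO mice was not tested, nor was mixing of reads between libraries. Reads on genes, estimated from gaps between low values, ran from 5.6 to 52.21 M in the 16 mice where this could be resolved. Depth was not balanced between the EtOH-fed groups. It was 52.21, 39.49 and 24.64 M in WT mice 1, 3 and 4. In *Apoe* KO mice 2, 4 and 5 it was 13.53, 7.88 and 8.39 M, and in mouse 1 it was 45.86 M. Each of the 6 genes rested on at least 193 estimated reads per mouse. Hepatocyte markers led by albumin, summed over 8 genes, were at 2251400 to 3993725 of a total of about 32267493 to 32292618 per mouse, so the tissue was liver as labelled.

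*Axl*, the TAM receptor linked to inflamed macrophages and to other non-parenchymal cells, was highest in *Apoe* KO mice and lowest in WT mice when both were fed EtOH. In pair-fed WT mice its scaled read counts were 1135, 1199, 1000 and 1333 (mean 1167 ± 138 SD, n = 4). In pair-fed *Apoe* KO mice they were 732, 826, 736, 978 and 1069 (868 ± 150, n = 5). EtOH-fed WT mice had 613, 631, 603, 773 and 779 (680 ± 88.4, n = 5), all below every pair-fed WT mouse. EtOH-fed *Apoe* KO mice had 1629, 1494, 2325 and 1573 (1755 ± 384, n = 4), all above every other mouse of the series. The pair-fed groups overlapped, as did pair-fed *Apoe* KO and EtOH-fed WT mice.

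*C1qa*, *C1qb* and *C1qc* encode the A, B and C chains of C1q and showed the same order of group means as *Axl*. For *C1qa* the values were 1337, 2361, 1695 and 3007 in pair-fed WT mice (mean 2100 ± 739 SD), and 1475, 1185, 1285, 1812 and 2246 in pair-fed *Apoe* KO mice (1601 ± 433). They were 1007, 1611, 1014, 1353 and 1339 in EtOH-fed WT mice (1265 ± 256), and 4074, 2036, 3185 and 3218 in EtOH-fed *Apoe* KO mice (3128 ± 836). With EtOH the genotypes did not overlap, while EtOH-fed *Apoe* KO mouse 2 lay within the range of both pair-fed groups.

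For *C1qb* the values were 1394, 1808, 1323 and 2209 in pair-fed WT mice, and 1141, 989, 1056, 1706 and 1753 in pair-fed *Apoe* KO mice. They were 782, 1188, 730, 1077 and 900 in EtOH-fed WT mice, and 2746, 1785, 2845 and 2545 in EtOH-fed *Apoe* KO mice. *C1qb* was the C1q chain with the clearest separation: EtOH-fed WT mice lay below all pair-fed WT mice, and EtOH-fed *Apoe* KO mice lay above all pair-fed *Apoe* KO mice, by 1785 against 1753 at the nearest. For *C1qc* the values were 1210, 1844, 1591 and 2626 in pair-fed WT mice, and 1463, 1090, 1204, 1751 and 1929 in pair-fed *Apoe* KO mice. They were 779, 1436, 907, 1273 and 1022 in EtOH-fed WT mice, and 3381, 1924, 3005 and 3118 in EtOH-fed *Apoe* KO mice. Here only the genotypes under EtOH were apart.

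*Mertk*, the TAM receptor of resident phagocytes, differed little between groups. Its values were 1492, 1369, 1058 and 1575 in pair-fed WT mice, and 1251, 1232, 1384, 1282 and 1710 in pair-fed *Apoe* KO mice. They were 948, 1101, 1435, 1005 and 1149 in EtOH-fed WT mice, and 1564, 1105, 1359 and 1511 in EtOH-fed *Apoe* KO mice. All pairs of groups overlapped, and 3 of the 4 group means lay between 1372 and 1385, with EtOH-fed WT mice at 1128 ± 189 (SD, n = 5).

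*Gas6*, the ligand of AXL and MERTK, was lower with EtOH in both genotypes. Its values were 2893, 6789, 3307 and 2735 in pair-fed WT mice, and 3166, 3155, 4608, 3711 and 3026 in pair-fed *Apoe* KO mice. They were 2702, 2316, 2069, 2024 and 2414 in EtOH-fed WT mice, and 2849, 2098, 2894 and 2361 in EtOH-fed *Apoe* KO mice. All 9 EtOH-fed mice were below all 5 pair-fed *Apoe* KO mice, and EtOH-fed WT mice were also below all pair-fed WT mice, by 2702 against 2735. Pair-fed WT mouse 2, at 6789, was far above the other 3 mice of its group.

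**Figure D1:**
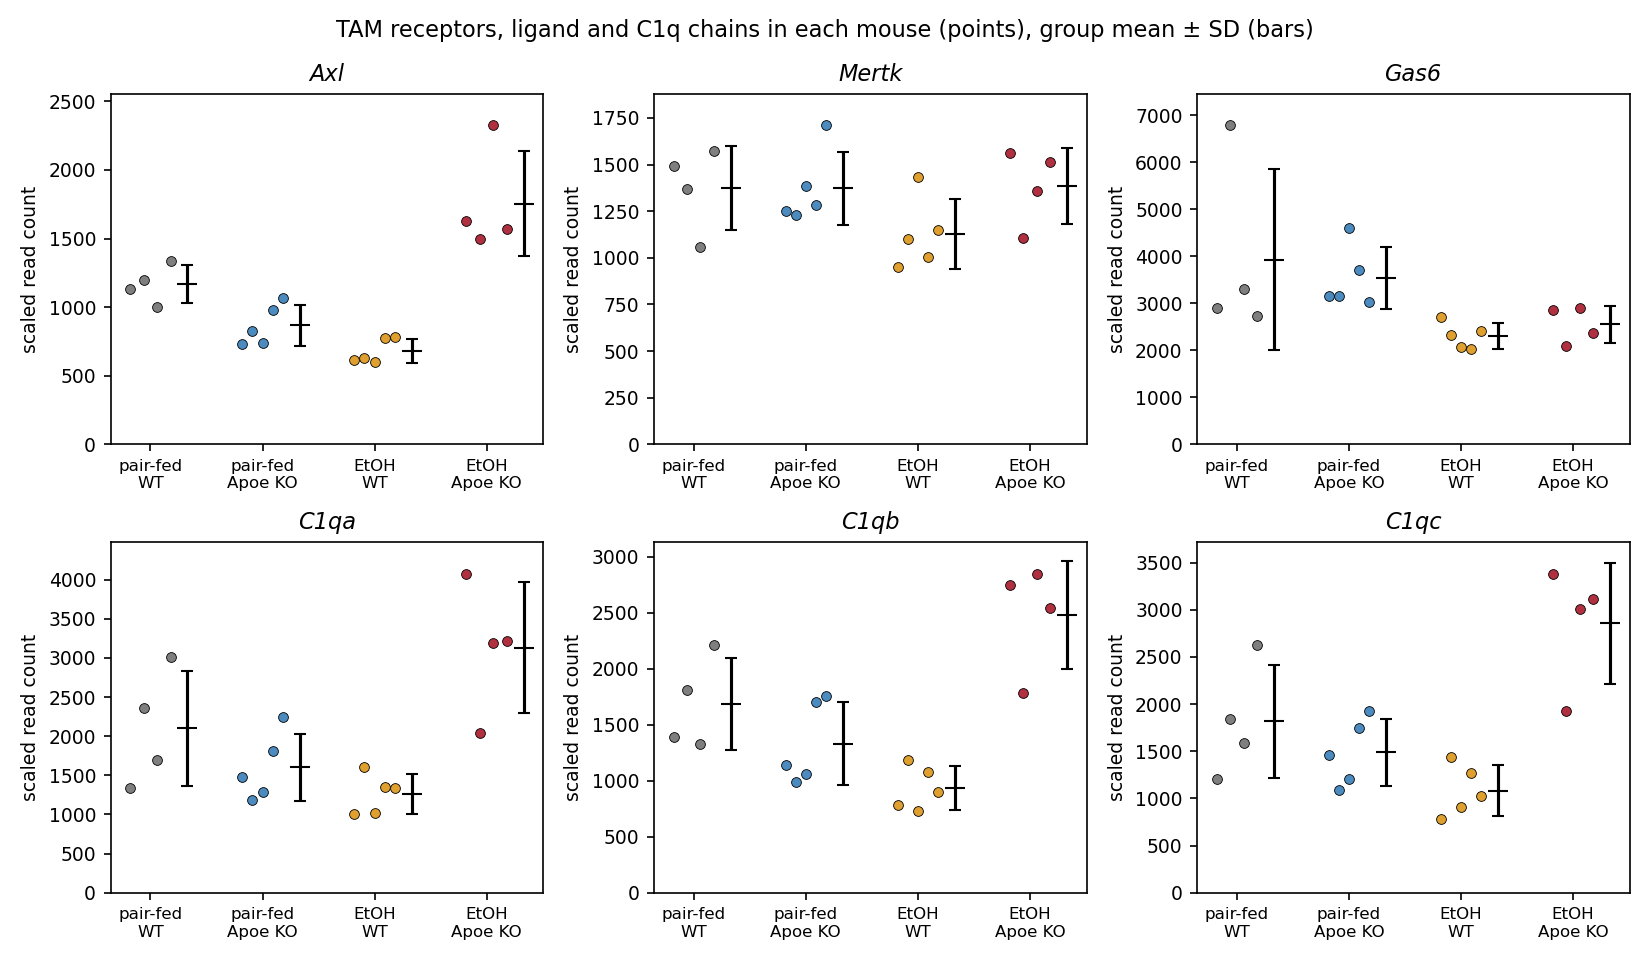
Scaled read counts of the 6 genes (y axes, each from 0) in the 4 groups (x axes); each point is 1 mouse, and the bars beside the points are the group mean ± SD. *Axl* and the 3 C1q chains are highest in EtOH-fed *Apoe* KO mice, *Mertk* overlaps in all groups, and *Gas6* is lower in both EtOH-fed groups, with pair-fed WT mouse 2 at 6789.

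Levels of different genes were compared only per kb of exon, with the exons of all annotated transcripts joined. On that scale, in pair-fed WT mice, *C1qa* (2019 scaled read counts per kb), *Gas6* (1543) and *C1qb* (1547) were the highest, *C1qc* was at 941, and the receptors *Mertk* (317) and *Axl* (232) were lower. In EtOH-fed *Apoe* KO mice *Axl* (349 ± 76.3 per kb, SD) was at about the level of *Mertk* (319 ± 47.5), whereas in EtOH-fed WT mice *Mertk* (260 ± 43.6) was above *Axl* (135 ± 17.6). *Tyro3*, the remaining TAM receptor, was at 2.54 to 5.97 per kb in the group means. The length used was 1931 bases for *C1qc* against 1040 for *C1qa* and 1088 for *C1qb*, so the lower value of *C1qc* per kb depends on it.

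The first question was how the *Apoe* KO differed from WT under EtOH, the comparison the deposited table was made for. *Axl* and C1q mRNA were 2.44- to 2.65-fold higher in the *Apoe* KO mice given EtOH than in WT mice given EtOH, and *Mertk* and *Gas6* were within 1.23-fold. The log2 differences were 1.35 ± 0.15 (SE) for *Axl*, 1.29 ± 0.19 for *C1qa*, 1.41 ± 0.17 for *C1qb* and 1.40 ± 0.19 for *C1qc*. They were 0.30 ± 0.14 for *Mertk* and 0.14 ± 0.13 for *Gas6*. The genotypes did not overlap for *Axl* and the 3 C1q chains. The share of all genes whose groups do not overlap was not computed, for this or any other comparison. As background, limma with adjustment over all 15052 genes at a threshold of 0.05 called 4.25% of them higher and 0.445% lower. The 6 genes were chosen on these values, so nothing is read from this. Without mouse 1 the differences were 1.38 for *Axl*, 1.15, 1.35 and 1.31 for *C1qa*, *C1qb* and *C1qc*, 0.24 for *Mertk* and 0.08 for *Gas6*.

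Under pair feeding the direction was the opposite for *Axl* and C1q. The difference was larger than the SD between mice for *Axl* (0.22 on the log2 scale) and smaller than it for the C1q chains (0.37 to 0.44). *Apoe* KO minus WT was −0.44 ± 0.13 (log2, SE) for *Axl*, −0.36 ± 0.22 for *C1qa*, −0.35 ± 0.19 for *C1qb* and −0.27 ± 0.21 for *C1qc*. The C1q values rested on single mice: without WT mouse 4 they were −0.17, −0.21 and −0.07 for *C1qa*, *C1qb* and *C1qc*, without WT mouse 1 *C1qa* was at −0.56 and *C1qc* at −0.44, and without *Apoe* KO mouse 2 *C1qc* was at −0.16. *Mertk* (0.00 ± 0.13) and *Gas6* (−0.07 ± 0.22, and 0.23 without WT mouse 2) did not differ beyond their errors with all mice. The 2 genotypes overlapped for all 6 genes, and of all genes 0.87% were called higher and 0.864% lower.

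Diet was compared within each genotype next. In WT mice EtOH went with lower levels of *Axl* (−0.78 ± 0.13, 1.72-fold), *C1qa* (−0.69 ± 0.21), *C1qb* (−0.84 ± 0.18), *C1qc* (−0.72 ± 0.22) and *Gas6* (−0.67 ± 0.22), and *Mertk* was at −0.28 ± 0.15. Without pair-fed WT mouse 2 the *Gas6* difference was −0.37. The diets did not overlap for *Axl*, *C1qb* and *Gas6*. By limma, which is a different measure from overlap, 6.52% of all genes were called lower and 6.19% higher. In *Apoe* KO mice the same diet went with higher levels of *Axl* (1.01 ± 0.15, 2.01-fold), *C1qa* (0.96 ± 0.20), *C1qb* (0.92 ± 0.19) and *C1qc* (0.94 ± 0.19). *Gas6* was lower (−0.46 ± 0.14) and *Mertk* was unmoved within its error (0.01 ± 0.13). Without mouse 1 the values were 1.04, 0.82, 0.86 and 0.85 for *Axl*, *C1qa*, *C1qb* and *C1qc*, −0.52 for *Gas6* and −0.05 for *Mertk*. The diets did not overlap for *Axl*, *C1qb* and *Gas6*, and limma called 16.3% of all genes higher and 6.92% lower.

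The interaction, the EtOH difference in *Apoe* KO mice minus that in WT mice, puts the reversal into 1 value per gene. It was 1.79 ± 0.20 for *Axl*, 1.65 ± 0.32 for *C1qa*, 1.76 ± 0.28 for *C1qb* and 1.67 ± 0.31 for *C1qc* (log2, SE, all 18 mice). For *Mertk* it was 0.30 ± 0.20 and for *Gas6* 0.21 ± 0.28. Of all genes 2.6% were called higher and 0.239% lower. Without mouse 1 the values were 1.82, 1.51, 1.70 and 1.58 for *Axl*, *C1qa*, *C1qb* and *C1qc*, 0.23 for *Mertk* and 0.15 for *Gas6*. The 2 genotype comparisons share no mice, and each shares 1 group with each diet comparison.

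**Figure D2:**
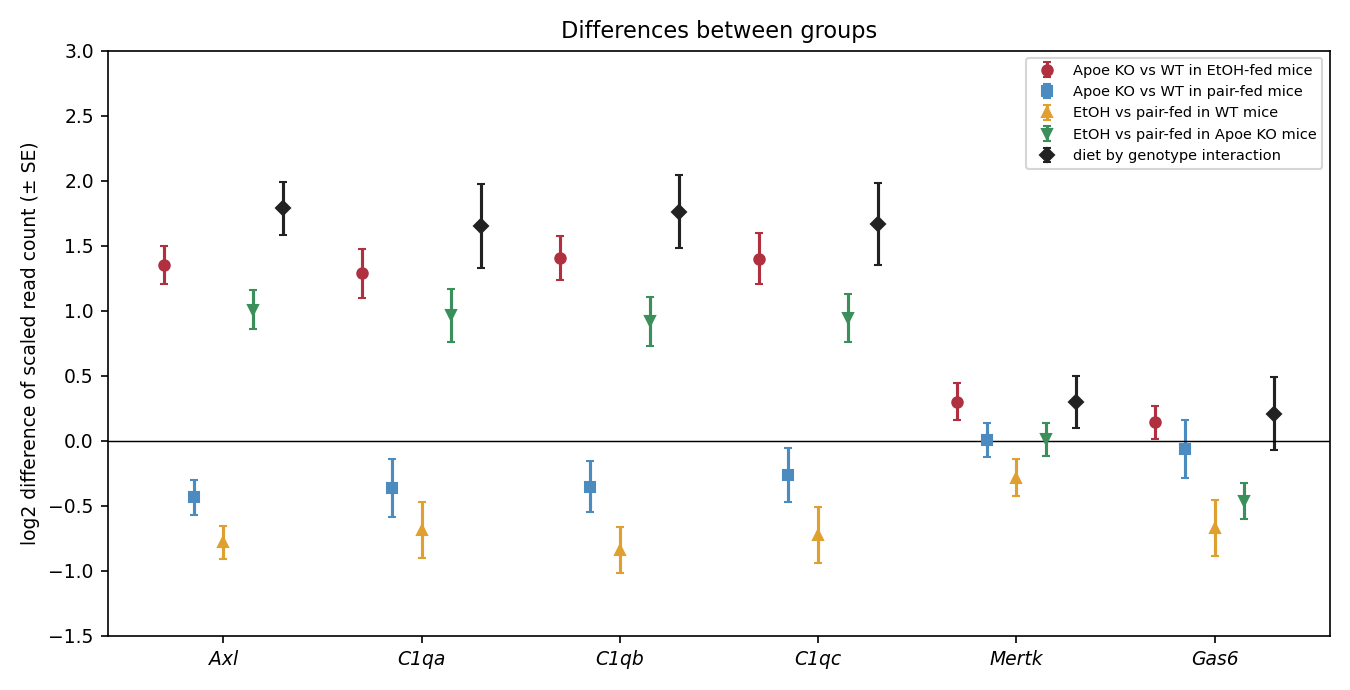
Log2 differences of the scaled read counts (y axis; points, with ± SE bars) for the 6 genes (x axis) in the 4 comparisons and for the interaction. For *Axl* and the C1q chains the *Apoe* KO difference is positive with EtOH (1.29 to 1.41) and negative with pair feeding (−0.44 to −0.27), whereas *Mertk* and *Gas6* have no such change of sign beyond their errors.

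The scaling touched the sizes but not the directions of *Axl* and the C1q chains. With median-of-ratios size factors in place of the deposited scaling, the median of all genes moved by 0.127 for genotype under EtOH, 0.124 for diet in *Apoe* KO mice and 0.140 for the interaction. The share of called genes that were higher went from 90.5% to 75.1%, from 70.1% to 50.8% and from 91.6% to 77.8% in these 3 comparisons. Fitted with these size factors, the genotype differences under EtOH were 1.23 for *Axl*, 1.16 for *C1qa*, 1.28 for *C1qb*, 1.27 for *C1qc*, 0.17 for *Mertk* and 0.01 for *Gas6*. For diet in *Apoe* KO mice they were 0.88, 0.84, 0.79 and 0.82 for *Axl*, *C1qa*, *C1qb* and *C1qc*, and *Mertk* changed sign to −0.11. The interactions were 1.65, 1.51, 1.62 and 1.53 in the same order of genes.

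Ratios within a mouse do not depend on the scaling. The C1q chains kept close to a fixed proportion in all 18 mice: *C1qc* per *C1qa* ran from 0.763 to 0.992 (CV 7.77%) and *C1qb* per *C1qa* from 0.672 to 1.04 (CV 11.5%), while the sum of the 3 chains ran from 2568 to 10201. *Axl* per summed C1q had group means of 0.219, 0.201, 0.213 and 0.214 (WT then *Apoe* KO with pair feeding, WT then *Apoe* KO with EtOH), with SDs of 0.0312 to 0.0526. *Axl* and C1q thus differed between groups in nearly equal proportion.

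EtOH-fed *Apoe* KO mice stood apart from the other 3 groups in *Axl* per *Mertk* and in *Gas6* per *Axl*, while those 3 groups overlapped. For *Axl* per *Mertk* that overlap was narrow for pair-fed WT mice. Their lowest value was 0.761, and the highest was 0.763 in pair-fed *Apoe* KO and 0.769 in EtOH-fed WT mice. *Axl* per *Mertk* was 0.857 ± 0.0764 (SD) for WT and 0.635 ± 0.0878 for *Apoe* KO with pair feeding, and 0.617 ± 0.131 for WT and 1.29 ± 0.319 for *Apoe* KO with EtOH. It was at 1.04 to 1.71 in the last group and at 0.420 to 0.945 in the other 14 mice. *Gas6* per *Axl* was 3.39 ± 1.60, 4.21 ± 1.27, 3.45 ± 0.667 and 1.47 ± 0.211 in the same order, so that the last group had the least ligand mRNA per receptor mRNA. Their range of 1.24 to 1.75 lay below the lowest value of each other group, the nearest being 2.05 in a pair-fed WT mouse. *Gas6* per *Mertk* was 2.94 ± 1.48, 2.62 ± 0.573, 2.10 ± 0.501 and 1.85 ± 0.234, and all groups overlapped.

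**Figure D3:**
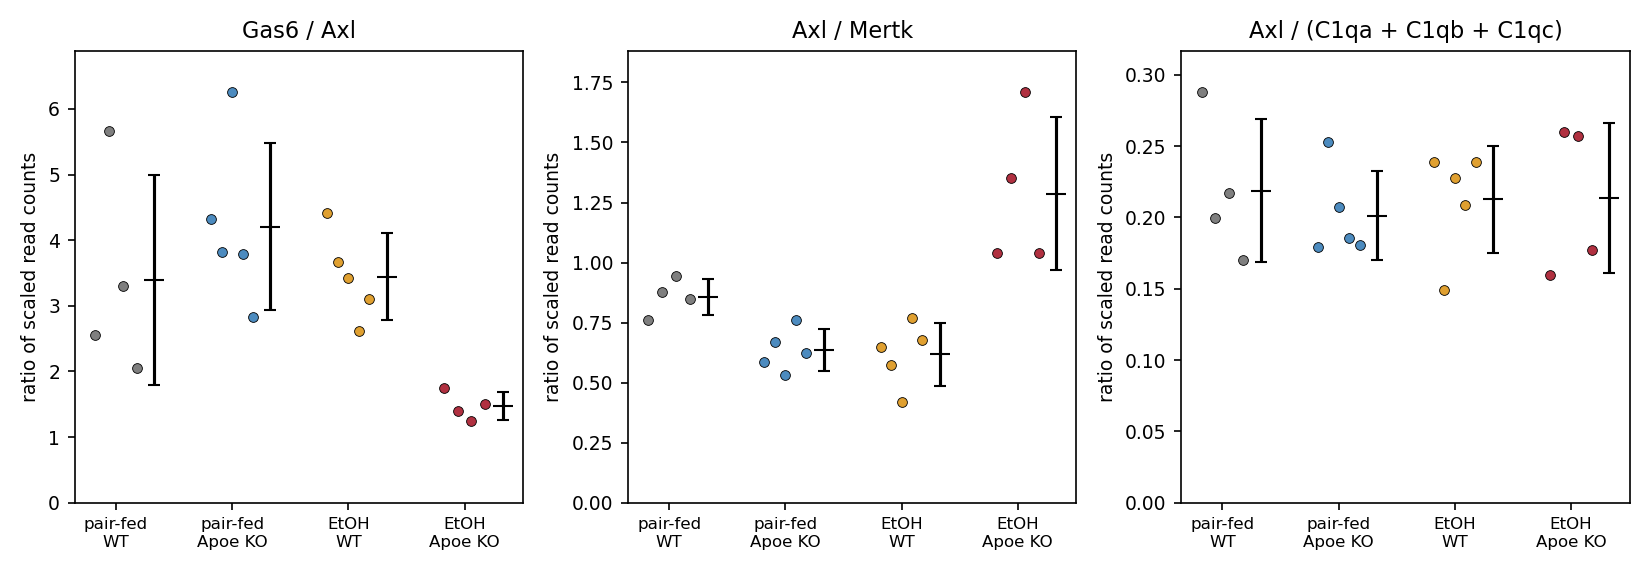
Ratios of scaled read counts within each mouse (y axes, from 0) by group (x axes), with points for mice and bars for the mean ± SD. EtOH-fed *Apoe* KO mice are lowest for *Gas6* per *Axl* (1.24 to 1.75) and highest for *Axl* per *Mertk* (1.04 to 1.71), and the groups overlap for *Axl* per summed C1q.

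The C1q values moved with macrophage markers. In bulk liver, more cells of a type and more RNA per cell cannot be told apart. The 5 genes whose log2 values were most like the mean of the C1q chains over the 18 mice were *Cybb* (Pearson r 0.977), a subunit of the phagocyte NADPH oxidase, *Csf1r* (0.963), the receptor for macrophage colony-stimulating factor, the Kupffer cell lectin *Clec4f* (0.952), lysozyme *Lyz2* (0.949) and *Themis2* (0.948). All points share the same libraries, group differences and scaling, and no p-value is attached. Summed C1q per *Csf1r* ran from 3.10 to 4.69 over all mice (CV 12.8%). It was 4.23 ± 0.410 (SD) in EtOH-fed *Apoe* KO and 3.37 ± 0.237 in EtOH-fed WT mice, ranges of 3.84 to 4.69 and 3.16 to 3.70 that did not overlap. Per *Clec4f* the ranges were also apart (1.36 to 1.65 and 1.15 to 1.29). They overlapped for summed C1q per *Cd68* (ranges of 11.3 to 17.1 and 13.7 to 16.03) and, as mean ± SD, per *Adgre1* (14.0 ± 2.52 and 16.3 ± 5.28), per *Vsig4* (7.44 ± 0.948 and 6.24 ± 1.44) and per summed macrophage markers (0.541 ± 0.0476 and 0.440 ± 0.0601), so the comparison depends on the marker.

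*Axl* had other nearest genes. They were the amino acid transporter *Slc38a1* (r 0.946), the procollagen processing enhancer *Pcolce* (0.944), *Plac8* (0.935), the podosome adaptor *Sh3pxd2b* (0.919) and the small GTPase *Arl4c* (0.916). Between the 6 genes, r was 0.965 to 0.983 among C1q chains, 0.868 to 0.930 between *Axl* and the chains, 0.463 between *Axl* and *Mertk* and 0.083 between *Axl* and *Gas6*. The 6 genes were chosen with their group levels known, and the group differences enter these values. For deviations from the group means, r was 0.920 to 0.961 among the chains and 0.525 to 0.709 between *Axl* and the chains.

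**Figure D4:**
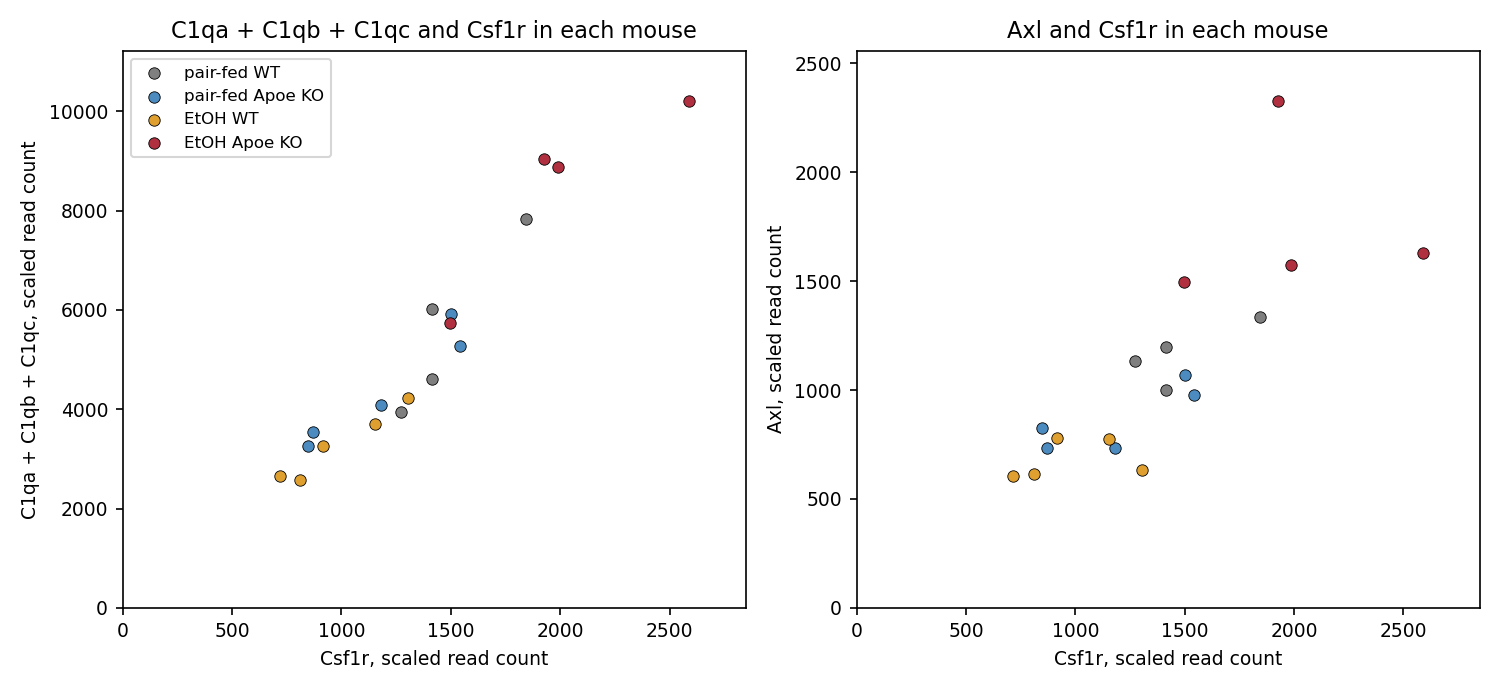
Summed C1q chains (left, y axis) and *Axl* (right, y axis) against *Csf1r* (x axes) in scaled read counts; each point is 1 mouse, coloured by group. Summed C1q keeps between 3.10 and 4.69 times *Csf1r* in all 18 mice, and *Axl* between 0.483 and 1.21 times.

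The marker lists give the wider picture beside these genes. The shares of all genes called in each comparison, given above, are the background for every list count below. Of 13 macrophage markers, 10 rose in EtOH-fed *Apoe* KO against EtOH-fed WT mice and 0 fell (9 and 0 without mouse 1, where *Tyrobp* had an adjusted p = 0.0699), with a median log2 difference of 1.12 beside 0.107 over all genes. The largest changes were in *Fcgr1* (1.81, adjusted p = 0.0012), *Adgre1* (1.54, adjusted p = 0.0104) and *Lyz2* (1.54, adjusted p = 0.00151). The summed macrophage markers were at 11860 to 17677 in EtOH-fed *Apoe* KO and 5189 to 9200 in EtOH-fed WT mice, against 9974 to 13309 and 7536 to 14575 for WT and for *Apoe* KO with pair feeding. In the interaction 10 of 13 rose (9 without mouse 1), and in WT mice 6 of 13 fell with EtOH. In *Apoe* KO mice 8 of 13 rose and 1 fell with EtOH (6 and 1 without mouse 1). Under pair feeding the scavenger receptor *Cd163* fell in *Apoe* KO mice (−1.91, adjusted p = 0.000541) and no other macrophage marker was called. The part of macrophage number in the *Axl* and C1q differences was not tested.

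Of 9 Kupffer cell markers, 7 rose in EtOH-fed *Apoe* KO against WT mice (5 of 9 without mouse 1). They were led by *Folr2* (1.77, adjusted p = 0.0348), *Cd5l* (1.77, adjusted p = 0.0012) and *Marco* (1.5, adjusted p = 0.014). *Folr2* was no longer called without mouse 1 (adjusted p = 0.0906). Under pair feeding 0 of the 9 were called for genotype by limma (3 at an unadjusted p under 0.05), and 4 differences were above 0. With EtOH 3 of the 9 markers fell in WT mice and 4 rose in *Apoe* KO mice (2 without mouse 1), and 3 rose in the interaction (2 without mouse 1). Their sums were at 17480 to 29788 in EtOH-fed *Apoe* KO and 10662 to 15436 in EtOH-fed WT mice. Of 9 markers of monocyte-derived macrophages, 5 rose in EtOH-fed *Apoe* KO mice against WT, led by *Gpnmb* (2.36, adjusted p = 0.0147), *Trem2* (1.91, adjusted p = 0.00363) and *Lgals3* (1.39, adjusted p = 0.00387), and *Cx3cr1* among them was lost without mouse 1. *Gpnmb* also rose in *Apoe* KO mice under pair feeding (2.03, adjusted p = 0.0353), where *Fabp5* fell (−2.06, adjusted p = 0.0267). The summed list was at 4484 to 10833 in EtOH-fed *Apoe* KO and 2954 to 4934 in EtOH-fed WT mice, and was 6623 to 12135 in pair-fed WT mice, where *Fabp5*, a fatty acid binding protein that other cells also make, alone had a mean of 4815.5.

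Other cell types gave a mixed picture, and their part in the differences of the 6 genes was not tested. Of 10 stellate cell and fibroblast markers, 3 rose in EtOH-fed *Apoe* KO against WT mice, *Col1a1* (2.0, adjusted p = 0.00216), *Col3a1* (1.75, adjusted p = 0.00209) and *Lum* (0.91, adjusted p = 0.00967), and their sums were 20066 to 35845 against 12206 to 19233. Of 10 sinusoidal endothelial markers, 0 were called by limma for genotype under EtOH (1 at an unadjusted p under 0.05), while 8 rose with EtOH in WT and 9 in *Apoe* KO mice, and 2 fell in *Apoe* KO mice under pair feeding. Their sums were 10266 to 17106 in EtOH-fed *Apoe* KO and 10937 to 14334 in EtOH-fed WT mice. Hepatocyte markers (0 of 8), lymphocyte markers (0 of 8) and the 3 neutrophil markers of 10 that the table lists (0 of 3) had no call by limma for genotype under EtOH (1, 0 and 0 at an unadjusted p under 0.05), and of 5 cholangiocyte markers 1, *Krt19*, rose (2.05, adjusted p = 0.0446). Lymphocyte marker sums were at 274 to 480 in EtOH-fed *Apoe* KO and 205 to 365 in EtOH-fed WT mice, neutrophil sums at 154 to 377 and 145 to 214, cholangiocyte sums at 1290 to 2791 and 996 to 1537, and hepatocyte sums at 2408069 to 3349385 and 2251400 to 3783951.

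The partners of the TAM axis were mostly not called. *Tyro3* was listed at 6 to 66 in all mice and did not pass in any comparison (adjusted p = 0.298 for genotype under EtOH). *Pros1*, which encodes protein S and is made by hepatocytes, was at 2920, 2740, 2587 and 2411 in EtOH-fed *Apoe* KO mice and at 2278, 2161, 1847, 1851 and 1827 in EtOH-fed WT mice. It rose by 0.42 ± 0.11 (log2, SE, adjusted p = 0.0413), a call that was lost without mouse 1 (0.38, adjusted p = 0.0952). Under pair feeding the *Pros1* difference was 0.31 ± 0.09 (adjusted p = 0.0877 by limma), and its interaction was 0.11 ± 0.13. Of the 10 partners, 2 rose for genotype under EtOH, *Pros1* and the galectin *Lgals3*, a ligand reported for MERTK. In *Apoe* KO mice EtOH lowered *Socs3* (−1.32, adjusted p = 0.000186), an inhibitor of cytokine signalling, and raised *Lgals3* (1.06, adjusted p = 0.00897), and in WT mice it lowered *Vkorc1* (−0.66, adjusted p = 0.0302), which recycles the vitamin K that protein S and GAS6 need. *Lgals3* was also lower with EtOH in WT mice (−0.61, adjusted p = 0.0488), and it was the only partner with an interaction (1.68, adjusted p = 0.0113).

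Of 20 other receptors and bridges for apoptotic cells, 6 rose in EtOH-fed *Apoe* KO against WT mice and 0 fell, and the others were not called. The median log2 difference was 0.42, beside 0.107 over all genes, and 17 of the 20 differences were above 0. The 6 were thrombospondin *Thbs1* (1.82, adjusted p = 0.0143), *Cd14* (1.63, adjusted p = 0.000807), the scavenger receptor *Marco*, the phosphatidylserine receptor *Timd4* (1.20, adjusted p = 0.0113), *Cd300a* (1.04, adjusted p = 0.0359, and 0.0729 without mouse 1) and calreticulin *Calr* (0.62, adjusted p = 0.00804). *Timd4* was at 301 to 531 in EtOH-fed *Apoe* KO and at 124 to 243 in EtOH-fed WT mice, and it did not pass for genotype under pair feeding, for diet in either genotype or for the interaction (adjusted p = 0.18). With EtOH, 8 of the 20 rose and 3 fell in *Apoe* KO mice, the 3 being the lipoprotein receptors *Lrp1* (−0.64, adjusted p = 0.00317) and *Scarb1* (−0.64, adjusted p = 0.0029) and *Scarf1* (−0.41, adjusted p = 0.0455, and 0.0509 without mouse 1). *Cd93*, named once as a C1q receptor, rose with EtOH in *Apoe* KO (1.63, adjusted p = 0.000955) and in WT mice (1.15, adjusted p = 0.00332). By limma 0 of the 20 passed for genotype under pair feeding (11 at an unadjusted p under 0.05), and 1, *Cd93*, rose with EtOH in WT mice. Among the 8 in *Apoe* KO mice were also the scavenger receptor *Msr1* (1.07, adjusted p = 0.000743) and *Cd14* (1.20, adjusted p = 0.00801).

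Genes of engulfment and digestion included 4 of 19 that rose in EtOH-fed *Apoe* KO against WT mice and 0 that fell. These were *Dock2* (1.18, adjusted p = 0.0147), an exchange factor for Rac, the cholesterol exporter *Abcg1* (1.05, adjusted p = 0.00152), *Cybb* (1.04, adjusted p = 0.00303) and the mitochondrial carrier *Ucp2* (0.89, adjusted p = 0.0133). *Abcg1* also rose with EtOH in *Apoe* KO mice (0.61, adjusted p = 0.00318), and *Abca1*, which likewise exports cholesterol, rose in *Apoe* KO mice under pair feeding (0.49, adjusted p = 0.0126), where *Ucp2* fell (−0.56, adjusted p = 0.0206). *Sgk1*, a glucocorticoid-induced kinase, and *Pparg* rose with EtOH in both genotypes, *Sgk1* by 1.91 in WT (adjusted p = 0.00397) and 1.74 in *Apoe* KO mice (adjusted p = 8.81e-05). With EtOH, 5 of the 19 rose in *Apoe* KO mice, and in WT mice 2 rose and 3 fell, namely *Dock2*, *Ucp2* and *Cybb*.

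Among 12 find-me and do-not-eat-me signals, the fractalkine receptor *Cx3cr1* (1.36, adjusted p = 0.0321) and *Sirpa*, the receptor for CD47 (0.88, adjusted p = 0.00681), rose in EtOH-fed *Apoe* KO against WT mice. *Cx3cr1* was not called without mouse 1 (adjusted p = 0.0552). The UTP receptor *P2ry2* rose in *Apoe* KO mice under pair feeding (0.78, adjusted p = 0.0471), 0 of 12 passed with EtOH in WT mice by limma (5 at an unadjusted p under 0.05), and in *Apoe* KO mice 2 rose and 1 fell with EtOH (3 and 1 without mouse 1). Of 20 listed complement partners, 3 rose in EtOH-fed *Apoe* KO against WT mice: the complement receptor *Vsig4* (1.08, adjusted p = 0.0366, and 0.0846 without mouse 1), the integrin *Itgb2* (1.08, adjusted p = 0.00951) and *C3ar1* (1.04, adjusted p = 0.015). The proteases that act with C1q did not share its pattern: with EtOH in *Apoe* KO mice *C1ra* (−0.34, adjusted p = 0.0113) and *C1s1* (−0.25, adjusted p = 0.0437) fell, although both have near-identical copies that could share reads. In that comparison 4 of the 20 partners rose and 3 fell (4 and 5 without mouse 1), and the largest rises were in the anaphylatoxin receptors *C3ar1* (1.56, adjusted p = 0.000234) and *C5ar1* (1.42, adjusted p = 0.00604). *Cd55*, which dissolves the convertases, rose with EtOH in WT mice (0.60, adjusted p = 0.0105) and in *Apoe* KO mice (0.76, adjusted p = 0.0175).

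Over all 81 listed pathway genes, 17 rose and 0 fell for genotype under EtOH (14 and 0 without mouse 1), 3 rose and 1 fell for genotype under pair feeding (1 to 11 called with each mouse left out), 4 rose and 5 fell for diet in WT mice, and 20 rose and 8 fell for diet in *Apoe* KO mice (21 and 9 without mouse 1). Median log2 differences were 0.27, 0.08, −0.13 and 0.26, beside 0.107, −0.005, −0.011 and 0.126 over all genes. For the interaction 8 passed (9 without mouse 1), all 8 in the direction of *Axl* and C1q: *C3ar1*, *Cd14*, *Cybb*, *Dock2*, *Lgals3*, *Megf10*, *P2ry6* and *Ucp2*. Over all genes 2.6% were called higher and 0.239% lower for the interaction, and 4.25% and 0.445% for genotype under EtOH. For genotype under pair feeding the shares were 0.87% and 0.864%. With EtOH they were 6.19% and 6.52% in WT mice and 16.3% and 6.92% in *Apoe* KO mice. The pathway counts for diet in WT mice were near these shares, and nothing is read from them. Most called genes of the table were thus higher for the interaction and for genotype under EtOH, so the shared direction is not particular to these lists. These lists were written with earlier results of the same mice known, and their counts are a description.

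**Figure D5:**
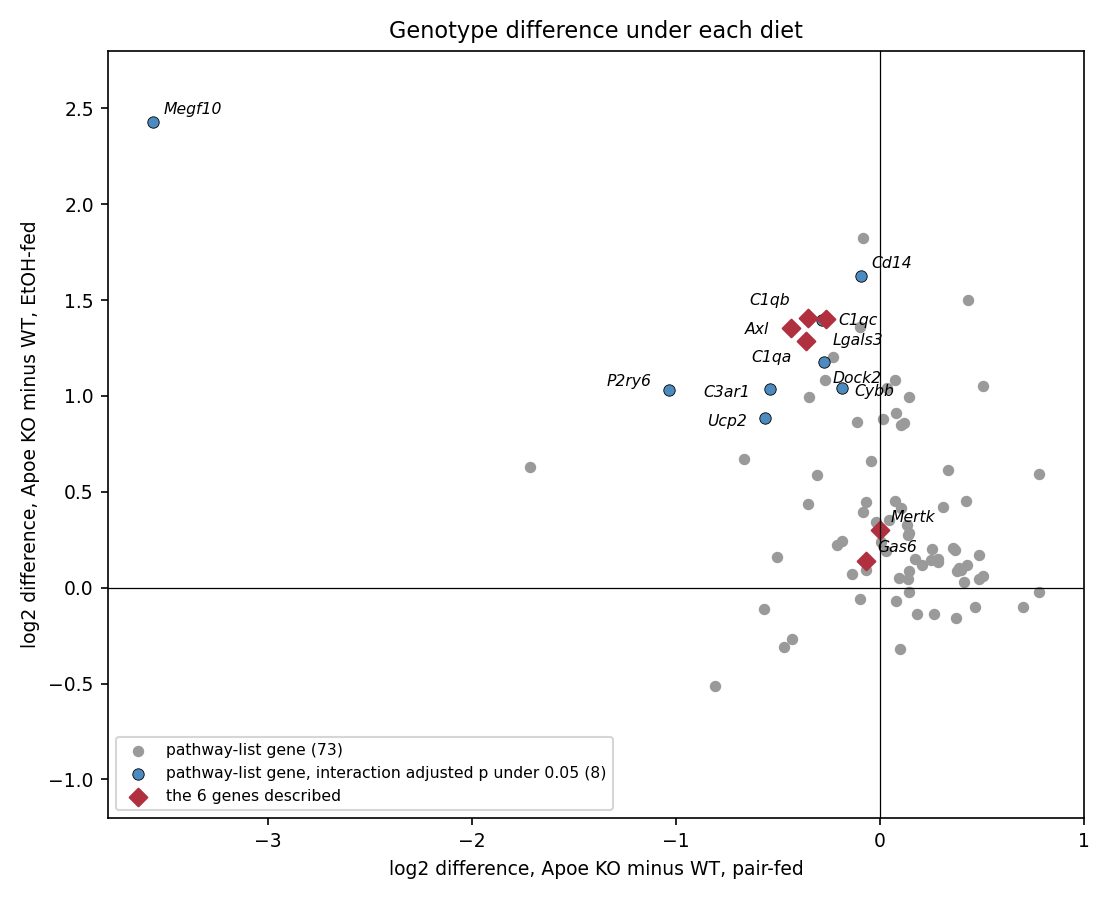
Log2 difference *Apoe* KO minus WT under pair feeding (x axis) and under EtOH (y axis) for the 81 pathway genes (circles; blue, adjusted interaction p under 0.05) and the 6 genes described (diamonds). *Axl* and the C1q chains lie at −0.44 to −0.27 and 1.29 to 1.41, and *Megf10*, at the far left, was listed at 0 to 2 in pair-fed *Apoe* KO mice, so that its position there rests on few reads.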

How the data were processed

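Livers of 18 mice were profiled by poly(A) RNA-seq, and groups were taken from the deposited labels. According to the submitters' processing notes and the methods, the authors used Trimmomatic for trimming, HISAT2 for alignment to GRCm38 and featureCounts for counting. Versions are not given in the sources used here. The values the authors deposited are a signal: counts per gene scaled to totals of 32267493 to 32292618 and rounded, by a step that is not described. Fold changes and p-values that the authors made with DESeq2, in the same table, were not used, and 0 columns of values per mouse were left out. Genes on several lines were used once, which left 15052, of which 15040 were placed in GENCODE M21.

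Tests were planned for this unit: limma 3.58.1 (R 4.3.3), with an intensity trend, on log2(value + 1), Benjamini-Hochberg adjusted over all genes at a threshold of 0.05. Only the mice of the 2 groups entered a fit, and all 18 entered the interaction. The 6 genes were chosen with their values known, so no p-value is given for them. The 6 genes and all lists were chosen with earlier results of these data known. Named otherwise were *Tyro3*, *Pros1*, *Timd4*, *Apoe*, *Xist* and *Ddx3y*, up to 12 called genes of the pathway lists per comparison by size, up to 3 of each marker list, and the 5 genes most like *Axl* and the mean of the C1q chains. *Sirpa*, *Calr*, *Lrp1*, *Scarb1*, *Scarf1*, *C1ra*, *C1s1* and *Abcg1* with EtOH in *Apoe* KO mice were named after their values were seen.

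Depth was estimated from the spacing of low values, tested on simulated data, and EtOH-fed WT mice 2 and 5 could not be resolved. One read stood for 0.618 to 5.763 units, so that low values are coarse in the shallowest libraries. No 2 mice had identical values. The labels do not say that mice came from separate cages or batches, and p-values measure the spread between these mice. Other settings were median-of-ratios size factors, log2(value + 8), a mean value of at least 100, no trend, all 4 groups in the fit, the replicate number as a block, and each mouse left out. Figures used Python 3.11.15 with numpy 2.4.6, pandas 2.3.3 and matplotlib 3.10.9. Protein sequences were not used here. The single-gene result of 1 macrophage marker is not reported here, although the gene stays in the counts and sums of its list.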

Additional observations from a re-analysis of the deposited data

Results flagged for a closer look

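Among 52 sets of values, 13 quantities in each of 4 groups, 4 values stood apart from the rest of their group by Dixon's gap test. Chance alone flags about 1 in 20 groups. EtOH-fed *Apoe* KO mouse 4 had an *Axl* value of 2325 against 1494 to 1629 in the other 3 mice of its group. Pair-fed WT mouse 2 had a *Gas6* value of 6789 against 2735 to 3307, and without it *Gas6* changed sign for genotype under pair feeding, from −0.07 to 0.23, and for the interaction, from 0.21 to −0.09. Pair-fed *Apoe* KO mouse 5 had a *Pros1* value of 2375 against 2779 to 2866 and a *Timd4* value of 594 against 141 to 224.

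For 8 genes of the efferocytosis and complement lists, the *Apoe* KO difference under EtOH was larger than that under pair feeding by limma's interaction term. The log2 interaction was 1.57 for *C3ar1* (adjusted p = 0.0101), 1.72 for *Cd14* (adjusted p = 0.0156), 1.23 for *Cybb* (adjusted p = 0.0119), 1.45 for *Dock2* (adjusted p = 0.0307), 1.68 for *Lgals3* (adjusted p = 0.0113), 2.07 for *P2ry6* (adjusted p = 0.0069) and 1.45 for *Ucp2* (adjusted p = 0.00329). *P2ry6*, a nucleotide receptor, was at 71 to 103 in pair-fed WT, 34 to 48 in pair-fed *Apoe* KO, 51 to 68 in EtOH-fed WT and 74 to 242 in EtOH-fed *Apoe* KO mice. *Megf10* had a fitted interaction of 5.99 (adjusted p = 0.00646), but its values were 0 to 2 in pair-fed *Apoe* KO mice and 7 to 82 in EtOH-fed *Apoe* KO mice, so that the size depends on the pseudocount and is no measure of fold.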

How the results depend on the processing

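Of 498 values of the 6 genes under alternative settings (5 comparisons), 498 stayed within 1 SD between mice of the reported value and 486 kept its sign. The 12 others were *Mertk* and *Gas6* values between −0.12 and 0.23. Staying within 1 SD was nearly fixed in advance and is no measure of stability. Leaving out 1 mouse moves a group mean by less than its SD. The settings with no trend, a mean value filter or all 4 groups in the fit do not change the difference itself. Over 706 genes called for genotype in EtOH-fed mice, the count was 368 with no intensity trend and 327 to 620 with each mouse left out (327 without WT mouse 1, 353 and 408 without *Apoe* KO mice 4 and 5). For genotype in pair-fed mice (261) it was 45 with no trend and 73 to 670 with a mouse left out (73, 670 and 91 without WT mice 2, 3 and 4, and 119, 166, 127 and 452 without *Apoe* KO mice 1, 3, 4 and 5). Leaving out a mouse gave 1186 to 1904 for diet in WT mice (1912; 1186 and 1231 without pair-fed mice 2 and 4) and 167 to 561 for the interaction (428; 241 and 167 without pair-fed WT mice 2 and 4, 266 without pair-fed *Apoe* KO mouse 3, 228 without EtOH-fed WT mouse 1, and 241 and 252 without EtOH-fed *Apoe* KO mice 4 and 5). Of the 17 pathway genes called for genotype in EtOH-fed mice, 10 passed with no trend. For genotype in pair-fed mice (4 pathway genes) 11 passed with log2(value + 8), 10 with a mean value of at least 100, 2 with no trend, 7 with all 4 groups in the fit and 1 to 11 with a mouse left out. For diet in WT mice (9) 5 to 13 passed with a mouse left out. Single genes were followed only in comparisons where they were already called, except *Tyro3*, *Pros1*, *Timd4* and *Apoe*, which were followed in all. Of these values 2609 kept their side of the threshold, 311 lost it and 4 gained it, with no reversal. Few of them started uncalled, so few could gain a call. Calls held in 6 settings or fewer for *Cd300a*, *Folr2*, *Krt19*, *Pros1* and *Vsig4* (genotype under EtOH), *P2ry2* (genotype under pair feeding), *Clec1b*, *Dnase1l3* and *Lgals3* (diet in WT mice), and *C1s1*, *Laptm5* and *Scarf1* (diet in *Apoe* KO mice), of 14 settings for *Folr2* and 15 for each of the others. The cause of these changes was not tested. With the replicate block 1083 genes were called for genotype in EtOH-fed mice and 392 for genotype in pair-fed mice. Deviations of same-numbered mice had correlations of −0.024 to 0.230 (mean 0.135) under EtOH. Differently numbered mice had −0.156 to 0.138 (mean −0.033). Under pair feeding the values were −0.051 to 0.071 (mean 0.015) and −0.222 to 0.196 (mean −0.004). The labels do not say that the numbers pair the mice, so no pairing was used in the main fits. Whether same-numbered mice share more than others under EtOH was not tested.

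The few mice per group and the shallowest libraries limit low genes, and *Tyro3* and *Megf10* most. Sizes under EtOH in *Apoe* KO mice also depend on the scaling, as given above.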
